A study of Homo sapiens with 49 samples.

Results

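The HOX cluster genes are the members of the HOXA, HOXB, HOXC and HOXD clusters. They were taken here as every symbol made of HOX, a cluster letter and a number that a probe set carried alone in the platform annotation used. They came to 29 genes of the 19774 with a probe set of their own, and each was read from whichever of its probe sets had the highest mean on the 49 arrays. The 29 genes were HOXA2, 10 HOXB genes, 9 HOXC genes and 9 HOXD genes. The other 10 HOXA genes were not analysed here.

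Ishikawa cells, a single established line from a human adenocarcinoma of the uterine epithelium, received ethinyl estradiol (EE), a synthetic estrogen used in contraceptive pills. After 72 h, total RNA was put on Affymetrix HT HG-U133 Plus PM arrays. The groups were ethanol vehicle (6 arrays) and EE at 0.1 pM (6), 0.3 pM (7), 1 pM (6), 3 pM (6), 10 pM (6), 100 pM (6) and 1000 pM (6), all in phenol red-free medium supplemented with CSS (the labels' abbreviation), with ethanol as the solvent. Whether replicates came from separate cultures is not given in the labels, and the spread behind the p-values may therefore be technical. With bulk RNA, fewer cells with a transcript and less of that transcript per cell cannot be told apart.

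HOX proteins are homeodomain transcription factors that give cells along the body axis their positional identity. In each cluster the genes are switched on in the order in which they lie on the chromosome, from the anterior genes with low numbers to the posterior ones with high numbers, and adult tissues keep much of that pattern, often called a HOX code. They bind DNA together with TALE homeodomain partners of the PBX and MEIS families, and Polycomb complexes keep the silent stretches of a cluster closed while Trithorax complexes keep the active ones open. Posterior HOX genes pattern the Müllerian duct, the embryonic source of the uterus, and those of the HOXA cluster are the best known in the endometrium.

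The cells carried epithelial markers and none of those tested for other cell types. All 9 epithelial markers (KRT8, KRT18, KRT19, EPCAM, CDH1, MUC1, PAX8, SOX17 and ESR1) lay above a log2 value of 4 on all 49 arrays, while 0 of 5 stromal, 0 of 5 immune and 0 of 4 endothelial markers did so on any array. SOX17 rose at 100 pM (by 0.58 log2 units) and 1000 pM (by 0.72), the only 1 of the 9 called there by the limma test described below. By slope SOX17 also rose (0.22 per 10-fold concentration), and CDH1, KRT18 and KRT19 fell. Without the 4 arrays described below CDH1 was also called lower at 1000 pM (−0.13, adjusted p = 0.0141), and PAX8 was called lower at 100 pM (adjusted p = 0.0297) and by slope (adjusted p = 0.0211). The log2 value of 4 is the floor used throughout, since GCRMA, the method behind the deposited values, compresses low signals toward a common bottom. The arrays were alike in their distributions, with 38.2% to 39.6% of probe sets above the floor. The beta-actin control probe sets set 4 arrays apart, with a 3′ minus 5′ difference of 2.67 to 4.62 log2 units against 0.80 to 2.06 in the other 45. They were replicate 5 of vehicle, replicate 2 of 0.3 pM and replicate 6 of both 3 pM and 1000 pM. Such a gap is a sign of RNA quality, and results below that rest on these arrays are given with and without them.

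The promoters of HOXD1 and HOXD4 are shown because these genes in the anterior part of the HOXD cluster lay on either side of the calling threshold in the dose response described below. The windows are the 250 bases before the RefSeq gene start on chromosome 2 (GRCh38.p14, plus strand), chr2:176188418-176188667 for HOXD1 and chr2:176151300-176151549 for HOXD4. Capitals mark the letters of an estrogen response half-site, GGTCA or its reverse complement TGACC.
HOXD1: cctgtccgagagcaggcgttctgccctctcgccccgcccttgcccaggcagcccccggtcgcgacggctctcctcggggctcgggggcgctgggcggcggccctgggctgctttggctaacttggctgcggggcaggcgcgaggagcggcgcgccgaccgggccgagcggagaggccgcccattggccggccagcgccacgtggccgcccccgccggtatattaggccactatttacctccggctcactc
HOXD4: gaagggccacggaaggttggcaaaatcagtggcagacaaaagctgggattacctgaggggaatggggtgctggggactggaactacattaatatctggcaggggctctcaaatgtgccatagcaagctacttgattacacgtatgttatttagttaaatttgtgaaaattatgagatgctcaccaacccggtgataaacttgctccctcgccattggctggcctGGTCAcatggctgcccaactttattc
The HOXD1 window held 31 CpG dinucleotides and 0 half-sites, and the HOXD4 window held 4 CpG dinucleotides and 1 half-site. The median over all 35116 RefSeq windows of this length was 11 CpG dinucleotides. A window was given for 12 of the 29 members (HOXC4 and HOXC5 share 1 sequence), and HOXB3 was not among them. A half-site was found in 4 of the 12 (HOXD4, HOXD10, HOXD11 and HOXD12), against 32.6% of all windows. The full element GGTCANNNTGACC was in 0 of the 12 and in 0.0399% of all windows. TGATTNAT, the composite letters bound by HOX and PBX proteins together and searched on both strands, was in 2 of the 12 (HOXD11 and HOXA2) and in 2.48% of all windows. A match describes letters in a window and no bound site.

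Among the members measured, those above the floor were HOXB and HOXD genes. Only 1 of the 11 HOXA genes was analysed, so the code given here leaves that cluster out. Of the 29 members, 13 exceeded the floor on at least 6 arrays, the rule for entering the tests, and 7 exceeded it on all 49. The 13 were 7 of the 10 HOXB genes and 6 of the 9 HOXD genes, with 0 of the 9 HOXC genes and not HOXA2. Of the 16 members that did not enter, 15 were above the floor on no array. The log2 values of one probe set cannot be set against those of another, so the code is read only as above or below the floor. Of all 19774 genes with a probe set, 11075 entered.

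Within HOXB the genes that entered the tests lay in 2 runs of neighbours. The most anterior genes, HOXB1 and HOXB2, were below the floor on every array, and HOXB3 was above it on all 49. HOXB4 was above it on 22 arrays, with 7 of 7 at 0.3 pM but 0 of 6 in vehicle (highest 3.98). HOXB5 was above it only on vehicle replicates 1 and 5 (4.09 and 4.45) and did not enter. HOXB6, HOXB7 and HOXB8, genes of the trunk region of the axis, were above it on all 49 arrays, and HOXB9 on 46. HOXB13, the next gene and the most posterior of the cluster, best known from the prostate, was above it on 28 arrays.

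Within HOXD, genes above the floor were interspersed with genes below it. HOXD1, its most anterior gene, was above the floor on 46 arrays and HOXD4 on 42, with HOXD3 between them below it on all 49. HOXD8 and HOXD9 were above it on all 49 arrays, HOXD10 on none, HOXD11 on 33 and HOXD12 on none. HOXD13, the most posterior gene, which patterns digits and the external genitalia, was above the floor on all 49. The 9 HOXC genes had log2 values of 1.84 to 3.85 over all arrays, so all of them stayed under the floor in vehicle and at every concentration. HOXA2, a gene of the hindbrain and second pharyngeal arch, stayed between 1.76 and 2.52.

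**Figure D1:**
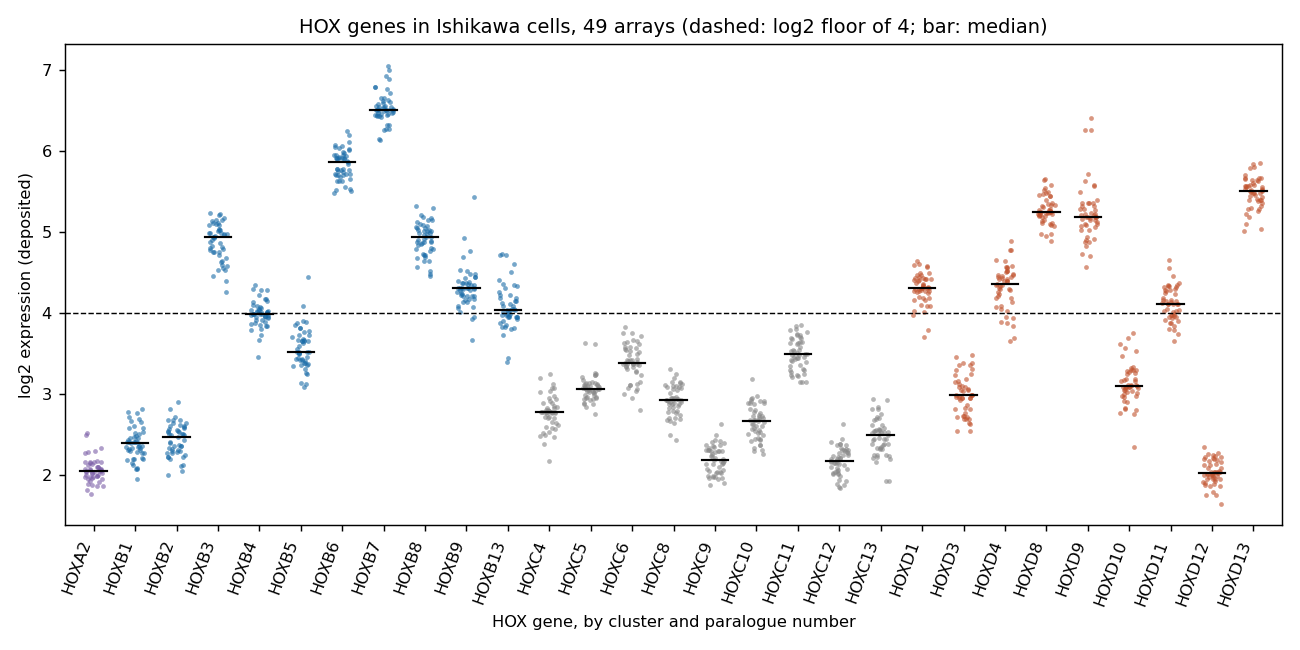
Log2 value of each of the 29 HOX genes on each of the 49 arrays (points, vertical axis), ordered by cluster and number along the horizontal axis, with bars at the medians and the floor of 4 as a dashed line. Points above the dashed line are confined to HOXB and HOXD, and heights of different genes are not comparable because each comes from its own probe set.

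Where a gene had several probe sets, the others often lay lower. HOXB7 had 3 probe sets above the floor on all 49 arrays, with means of 6.54, 6.54 and 6.45. HOXB3, HOXB6, HOXB8, HOXB9, HOXB13, HOXD1 and HOXD9 each had further probe sets that were above it on no array, and HOXD13 had 1 that was above it on 1 array. A gene named as below the floor is therefore one whose highest probe set was low here, not one shown to be silent. HOXB6, HOXB7, HOXB8, HOXD1 and HOXD4 are represented by probe sets of the kind Affymetrix marks as able to match more than 1 related transcript. The probe set that HOXD4 shares with MIR10B was left out.

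Among the long noncoding transcripts of the clusters, those above the floor lay in HOXD. Of 18 transcripts antisense to or between HOX genes, 12 had a probe set and 3 entered, HAGLR, HAGLROS and HOXD-AS2, all in HOXD and all above the floor on 49 arrays (means of 4.80, 6.48 and 7.46). The other 9, among them HOTAIR of HOXC, HOTTIP of HOXA and the HOXB transcripts HOXB-AS1, HOXB-AS3 and HOXB-AS4, were above it on no array. Of 9 homeobox genes beside the clusters or of the ParaHox family, 8 had a probe set and MNX1 alone entered. CDX1, CDX2 and CDX4, which activate HOX genes in the embryo, were above the floor on no array.

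Each EE concentration was compared with vehicle to ask whether the code responded to estrogen. The tests were fitted with limma over all 11075 genes, and a gene is called where its Benjamini-Hochberg adjusted p is under 0.05. The share of HOX genes called was near that of all genes. None of the 13 tested members was called at 0.1, 0.3, 1, 3 or 10 pM, where 0%, 0%, 0%, 0.153% and 0.858% of all genes were called, and by unadjusted p under 0.05 the counts were 0, 1, 0, 0 and 1 (4.22%, 2.60%, 7.98%, 3.22% and 12.8% of all genes). At 100 pM 1 of 13 was called (7.69%, against 10.1% of all genes), and at 1000 pM 1 of 13 (7.69%, against 7.21%), and by unadjusted p under 0.05 the counts were 1 and 2 (29.2% and 18.4% of all genes). The gene called was HOXD1 at both, lower than in vehicle as were 6.27% and 4.33% of all genes. An F test over the 8 groups called 0 of 13, against 6.99% of all genes, with 3 members under an unadjusted p of 0.05 (HOXB3, HOXD1 and HOXD4). A slope on the log10 of concentration over the 7 EE groups called 2 of 13 (15.4%, against 12.5% of all genes), HOXB3 and HOXD1. Both fell, as did 7.8% of all genes. The vehicle arrays do not enter the slope itself, but they enter the estimate of spread behind its p-value. No member rose in any of these tests, while 3.85% of all genes rose at 100 pM, 2.88% at 1000 pM and 4.7% by slope. Without the 4 arrays of high beta-actin difference the counts were 1 at 100 pM (HOXD1), 0 at 1000 pM, 1 by F (HOXD4) and 2 by slope (HOXB3 and HOXD4).

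HOXD1 encodes the most anterior factor of its cluster. Its log2 value in vehicle had a lowest, median and highest of 4.33, 4.46 and 4.64. At 0.1 pM these were 4.08, 4.36 and 4.44, at 0.3 pM 4.27, 4.41 and 4.60, and at 1 pM 4.08, 4.30 and 4.59. At 3 pM they were 4.03, 4.34 and 4.59, at 10 pM 4.15, 4.27 and 4.31, at 100 pM 3.70, 4.19 and 4.44, and at 1000 pM 3.79, 4.17 and 4.47. The 10 pM arrays all lay below the lowest vehicle array. Groups did not overlap at 10 pM, in either direction, in 0.885% of all genes. The 100 and 1000 pM arrays spread more widely and overlapped with vehicle, where 4.35% and 3.21% of all genes did not overlap.

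The group mean of HOXD1 was 4.46 ± 0.11 (SD, n = 6) in vehicle, 4.25 ± 0.07 at 10 pM, 4.14 ± 0.26 at 100 pM and 4.14 ± 0.23 at 1000 pM (n = 6 each). At 100 pM it fell by 0.32 ± 0.10 (SE) log2 units, a 1.24-fold decrease (limma adjusted p = 0.0436), with 6 of 6 arrays below the vehicle mean. At 1000 pM it fell by 0.32 ± 0.10, 1.25-fold (adjusted p = 0.0479, 95% interval −0.53 to −0.11), with 5 of 6 arrays below. At 10 pM the difference was −0.21 (unadjusted p = 0.0498, adjusted p = 0.39 by limma). Over the 7 concentrations the slope was −0.07 ± 0.02 per 10-fold rise in concentration (adjusted p = 0.0241). HOXD1 sits just above the floor, with 4 of 6 arrays above it at 1000 pM, where GCRMA shortens differences.

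These calls of HOXD1 lay close to the threshold and depended on single arrays. Without the 4 arrays of high beta-actin difference the decrease was −0.31 at 100 pM (limma adjusted p = 0.0489), −0.25 at 1000 pM (adjusted p = 0.192) and −0.05 per 10-fold for the slope (adjusted p = 0.0898). Leaving out any 1 array, the call at 100 pM was lost in 7 of 49 fits (vehicle replicates 2, 3, 4 or 5, or 100 pM replicates 3, 5 or 6, adjusted p of 0.0552 to 0.140). At 1000 pM it was lost in 32 of 49 fits, 9 of them for arrays of the groups compared (vehicle replicates 1 to 5 and 1000 pM replicates 3 to 6, adjusted p of 0.0522 to 0.139) and 23 for others (0.0503 to 0.0525). The slope lost its call without 1000 pM replicate 3 (0.0642) or replicate 6 (0.0910). The direction was downward in every one of these fits.

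HOXB3, an anterior gene of its cluster expressed in the hindbrain and in early blood cells, fell across the concentrations. Its log2 value in vehicle had a lowest, median and highest of 4.40, 4.92 and 5.23. At 0.1 pM these were 4.94, 5.08 and 5.15, at 0.3 pM 4.75, 4.98 and 5.17, and at 1 pM 4.58, 4.87 and 5.22. At 3 pM they were 4.76, 5.01 and 5.21, at 10 pM 4.46, 4.87 and 5.15, at 100 pM 4.53, 4.76 and 4.97, and at 1000 pM 4.26, 4.60 and 4.93. The medians were lowest at 100 and 1000 pM, but the vehicle arrays spread over nearly the whole range and overlapped with every group.

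The mean of HOXB3 went from 5.06 ± 0.09 (SD, n = 6) at 0.1 pM to 4.77 ± 0.18 at 100 pM and 4.62 ± 0.23 at 1000 pM (n = 6 each), with vehicle at 4.86 ± 0.33 (n = 6). The slope was −0.10 ± 0.02 (SE) log2 units per 10-fold (limma adjusted p = 0.00246). Against vehicle, 1000 pM differed by −0.24 ± 0.12, which was not called (adjusted p = 0.283). At 0.1, 0.3, 1 and 3 pM HOXB3 lay above the vehicle mean, by 0.20, 0.12, 0.04 and 0.12, and was not called. The slope thus runs from groups above vehicle to groups below it. The slope was called in all 49 fits that left out 1 array (adjusted p of 0.000993 to 0.0123). The 4 arrays with a high beta-actin difference each held the lowest HOXB3 value of their group, and without them the slope was −0.09 (adjusted p = 0.00218).

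HOXB3 had 3 probe sets, and the fall was measured on 1. The other 2 were above the floor on no array, where GCRMA compresses signals, and were not tested. The higher of them had a mean of 2.91 ± 0.23 (SD) in vehicle and 3.40 ± 0.17 at 1000 pM. That difference of 0.485 is opposite in sign to the −0.24 of the tested probe set at 1000 pM. The lower had 2.09 ± 0.21 and 2.12 ± 0.10. The fall by slope therefore rests on 1 probe set, and no slope was taken on the others. Which transcripts each probe set reads was not analysed here.

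**Figure D2:**
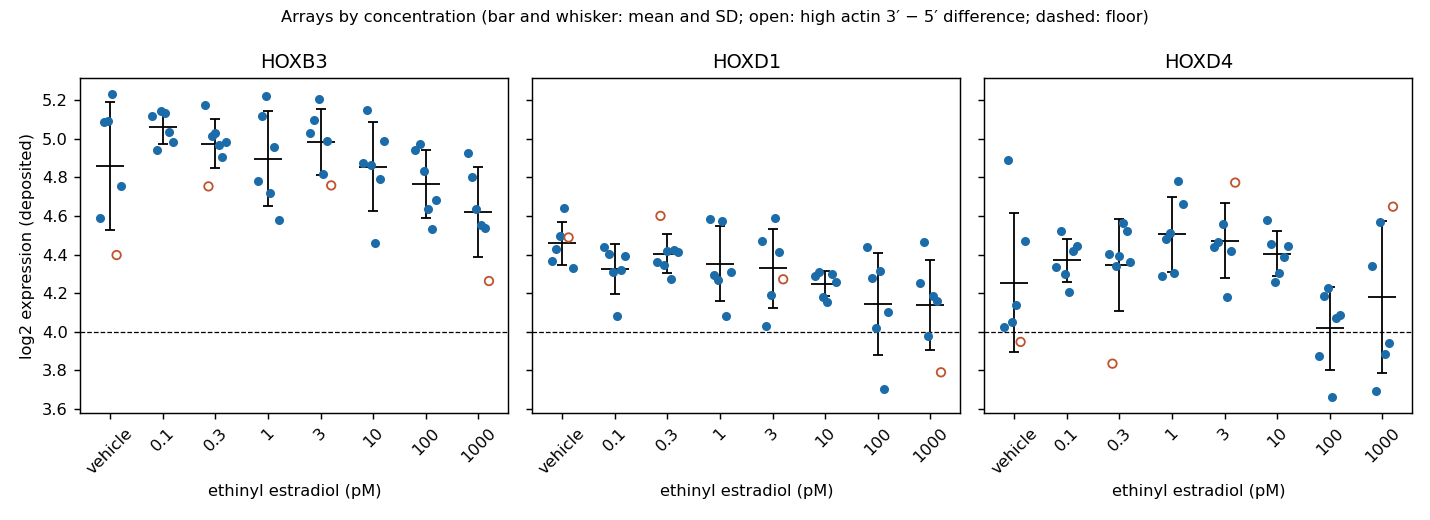
Log2 values of HOXB3, HOXD1 and HOXD4 on every array (points, open for the 4 arrays of high beta-actin difference) with group means and SD (bars and whiskers), by group from vehicle through 0.1 to 1000 pM EE, and the floor of 4 as a dashed line. HOXD1 and HOXB3 lie lowest at the highest concentrations, and vehicle arrays of HOXB3 and HOXD4 spread widely.

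HOXD4, which lies beside the microRNA gene MIR10B, missed the threshold. Its log2 value in vehicle had a lowest, median and highest of 3.95, 4.10 and 4.89. At 0.1 pM these were 4.21, 4.38 and 4.52, at 0.3 pM 3.83, 4.39 and 4.56, and at 1 pM 4.29, 4.50 and 4.78. At 3 pM they were 4.18, 4.45 and 4.77, at 10 pM 4.26, 4.42 and 4.58, at 100 pM 3.66, 4.08 and 4.23, and at 1000 pM 3.69, 4.14 and 4.65. The vehicle and 1000 pM arrays both spread widely and overlapped with each other, and the median was lowest at 100 pM.

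The mean of HOXD4 was 4.51 ± 0.19 (SD, n = 6) at 1 pM, 4.02 ± 0.21 at 100 pM and 4.18 ± 0.39 at 1000 pM (n = 6 each), with vehicle at 4.25 ± 0.36 (n = 6). Its slope was −0.08 ± 0.03 (SE) per 10-fold and was not called (limma adjusted p = 0.0529). With the replicate number as a block it was called (−0.08, adjusted p = 0.0397), with the numbers pairing the arrays in some neighbouring EE groups but not in all. The result also rests on the 4 arrays: without them the slope was −0.11 (adjusted p = 0.00195) and the F test also called HOXD4 (adjusted p = 0.0264). In 12 of the 49 fits that left out 1 array the slope was called, with adjusted p as low as 0.0138 without 1000 pM replicate 6. The difference from vehicle at 100 pM was −0.24 ± 0.14 (adjusted p = 0.249).

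The remaining HOXD genes were not called at any concentration. HOXD8 had a lowest, median and highest log2 value of 5.14, 5.32 and 5.65 in vehicle and 4.89, 5.17 and 5.25 at 1000 pM, so the groups overlapped although 6 of 6 arrays at 1000 pM lay below the vehicle mean. The difference was −0.21 (95% interval −0.40 to −0.01, adjusted p = 0.228 by limma). It was −0.14 without the 4 arrays. At 1000 pM HOXD9 differed from vehicle by −0.08 (−0.50 to 0.34), HOXD11 by −0.16 (−0.41 to 0.10) and HOXD13 by 0.05 (−0.18 to 0.28). These intervals of HOXD9 and HOXD11 include a decrease as large as that of HOXD1. Without the 4 arrays the differences were 0.01 ± 0.14 (SE) for HOXD9, −0.22 ± 0.14 for HOXD11 and 0.08 ± 0.11 for HOXD13.

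The HOXB genes other than HOXB3 also gave no call. At 1000 pM the difference from vehicle was 0.02 for HOXB4 (−0.17 to 0.22), 0.06 for HOXB6 (−0.16 to 0.28) and −0.02 for HOXB7 (−0.24 to 0.20). It was −0.03 for HOXB8 (−0.28 to 0.22), 0.00 for HOXB9 (−0.30 to 0.30) and −0.08 for HOXB13 (−0.42 to 0.26). Without the 4 arrays of high beta-actin difference these 3 were −0.11 ± 0.12 (SE), 0.15 ± 0.11 and −0.03 ± 0.15, again not called. The 3 probe sets of HOXB7 differed by −0.02, 0.19 and −0.01. HOXB4 at 0.3 pM lay above every vehicle array (4.01 to 4.29, n = 7, against 3.85 to 3.98, n = 6). Groups did not overlap there, in either direction, in 0.0451% of all genes. The HOXB4 difference of 0.22 was not called (limma adjusted p = 0.952), and at the other 6 concentrations HOXB4 overlapped with vehicle. No member stood clear of vehicle at 0.1, 1 or 3 pM, where 0.0451%, 0.117% and 0.172% of all genes did.

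As a group the 13 members moved little. At 1000 pM their median difference from vehicle was −0.07 log2 units, against −0.01 over all genes tested, with a range of −0.32 to 0.06 and 9 of 13 below 0 (54.3% of all genes). At 100 pM the median was −0.11, against −0.02, with 10 of 13 below 0 (53.4% of all genes). For the slope the median was −0.01, against 0.00 over all genes, with 6 of 6 HOXD genes and 3 of 7 HOXB genes below 0 (56.7% of all genes). The comparisons with vehicle share the same 6 vehicle arrays. For scale, the progesterone receptor gene PGR, a textbook estrogen target, had a slope of 1.47 per 10-fold and GREB1 one of 0.77, against −0.10 for HOXB3.

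**Figure D3:**
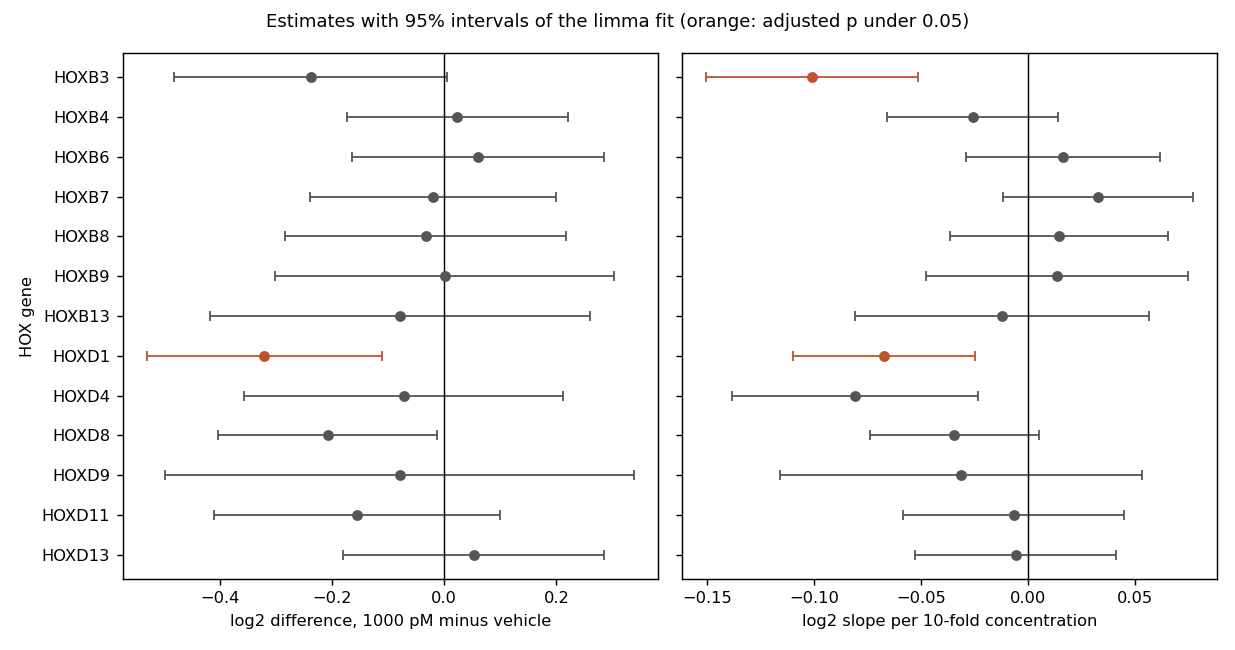
Difference from vehicle at 1000 pM EE in log2 units (left) and slope in log2 units per 10-fold concentration over the 7 EE groups (right) for the 13 HOX genes that entered the tests, with 95% confidence intervals as bars and called genes in orange. HOXD1 is called in both panels and HOXB3 in the right one, while HOXD8 on the left and HOXD4 on the right have intervals below 0 without a call.

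For several HOX genes the highest values lay in the 4 arrays of high beta-actin difference. HOXD9 had values of 6.26, 6.41, 6.27 and 5.72 in the 4 arrays of high beta-actin difference (vehicle, 0.3, 3 and 1000 pM), all above the 4.57 to 5.64 of the other 45. HOXB9 had 5.44, 4.76, 4.93 and 4.69 there, all above 3.67 to 4.54. HOXB7 had 6.93, 7.00, 7.06 and 6.90, all above 6.14 to 6.80. These 4 arrays belong to 4 groups, so for these genes the array rather than the concentration went with the highest values.

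Others went with them in part. HOXB13 was at 4.72, 4.73, 4.61 and 4.41 in the 4 arrays, against 3.39 to 4.72 in the rest, and HOXB8 was above the other 45 in 2 of the 4. HOXB3 ran the other way, 0.26 to 0.55 log2 units below its group mean over the other arrays in all 4. The part of RNA quality in these values was not tested.

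**Figure D4:**
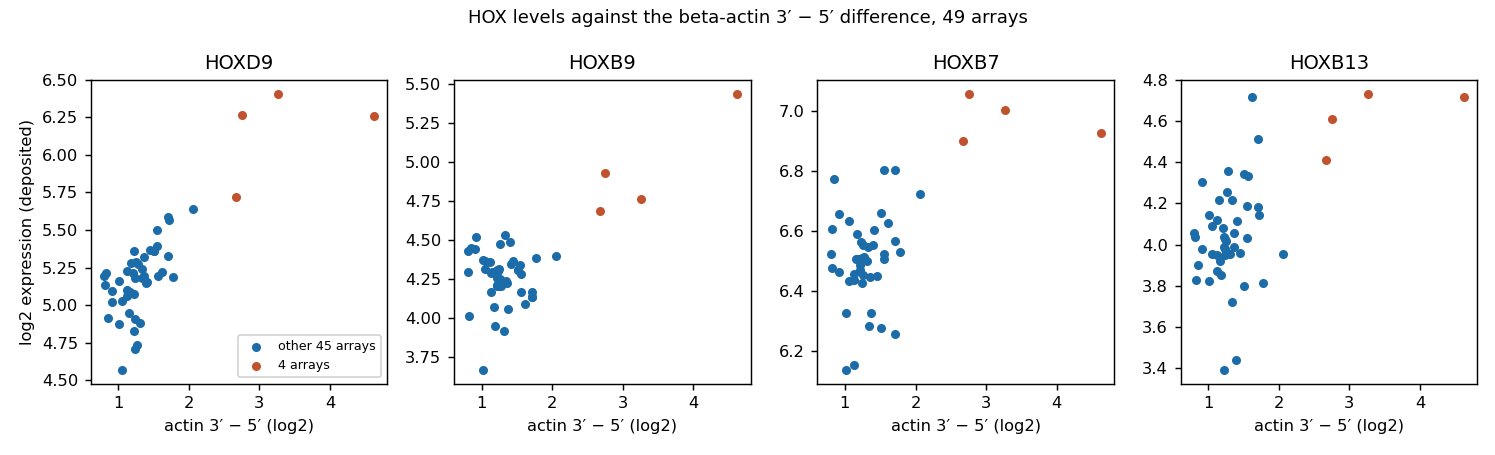
Log2 value of HOXD9, HOXB9, HOXB7 and HOXB13, 1 panel each with its own scale, on each of the 49 arrays (vertical axis) against the beta-actin 3′ minus 5′ difference of that array in log2 units (horizontal axis). The 4 arrays at 2.67 to 4.62 (orange) carry the highest HOXD9, HOXB9 and HOXB7 values, and 2 of them the highest HOXB13 values.

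Partners of HOX proteins were present, and most were not called. Of 11 TALE genes, 10 had a probe set and 6 entered (PBX2, PBX3, MEIS1, PKNOX1, TGIF1 and TGIF2). At 100 and 1000 pM 1 of 6 was called at each, against 10.1% and 7.21% of all genes. By unadjusted limma p under 0.05 the count was 3 of 6 at each (29.2% and 18.4% of all genes). The largest rise was 0.36 log2 units at both and was not called. MEIS1, the partner that HOX and PBX proteins recruit to DNA, rose at 1000 pM by 0.20 ± 0.06 (SE) log2 units (limma adjusted p = 0.0279), with 6 of 6 arrays above the vehicle mean, and by slope (0.03 per 10-fold, adjusted p = 0.0473). TGIF2, a repressor of TGF-beta signalling, fell by 0.31 ± 0.10 at 100 pM (adjusted p = 0.0399), a call lost without the 4 arrays (−0.22, adjusted p = 0.0800). The other 4 were not called, though without the 4 arrays TGIF1 was called by slope, as was CBX2 of the Polycomb genes.

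Of 19 Polycomb genes 16 had a probe set and all 16 entered, EZH2, EED and SUZ12 among them. RBBP7, a histone-binding subunit that Polycomb complex PRC2 shares with histone deacetylase complexes, rose by 0.69 ± 0.07 (SE) at 100 pM (limma adjusted p = 9.25e-11) and by 0.75 ± 0.07 at 1000 pM (adjusted p = 4.99e-12), with 6 of 6 arrays above the vehicle mean at both, and was also called at 10 pM. The other 15 were called at no concentration. Of 10 Trithorax genes and H3K27 demethylases, all entered. KMT2C, an H3K4 methyltransferase, rose by 0.31 ± 0.08 at 1000 pM (adjusted p = 0.0118). KDM6B, an H3K27 demethylase, fell by 0.32 ± 0.10 at 100 pM (adjusted p = 0.0316), a call lost without the 4 arrays (−0.22, adjusted p = 0.0936). The other 8 were not called, nor were HAGLR, HAGLROS, HOXD-AS2 and MNX1, of which 1 of the transcripts at 10 pM and MNX1 at 1000 pM had an unadjusted p under 0.05.

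Genes reported as endometrial targets of HOXA factors were measured too, though of the cluster itself only HOXA2 was analysed. EMX2, a homeobox gene of the urogenital tract, differed from vehicle at 1000 pM by 0.16 ± 0.06 (SE) and was not called (limma adjusted p = 0.0869). ITGB3, the beta-3 integrin of the receptive endometrium, had a slope of −0.22 per 10-fold (adjusted p = 1.12e-05), and at 100 pM it differed from vehicle by −0.29 ± 0.18 (adjusted p = 0.263), or by −0.59 ± 0.08 without the 4 arrays (adjusted p = 7.05e-07). At 10 pM it differed by −0.05 and was not called, but without the 4 arrays by −0.35 (adjusted p = 0.0146). At 1000 pM it differed by −0.54 ± 0.18 (adjusted p = 0.0555), or by −0.75 ± 0.09 without the 4 arrays (adjusted p = 6.53e-09). IGFBP1, a marker of decidual cells, was above the floor on no array.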

How the data were processed

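RNA of 49 Ishikawa samples was measured on 1 array each. The deposited values are log2 expression levels per probe set, made with GCRMA and Partek per the submitters' processing notes, with versions and parameters not given in the sources used here. Background correction, normalization and summarization were the authors'. The number of arrays limits the precision.

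Of 54715 probe sets 40920 had 1 symbol in the platform annotation, 864 several and 12931 none, and 40864 matched RefSeq (GRCh38.p14) by Entrez identifier. A gene was represented by its probe set of highest mean and entered with log2 above 4 on at least 6 arrays. In limma 3.58.1 (R 4.3.3, with data.table version 1.17.8) the means of the 8 groups were modelled, with an intensity trend and Benjamini-Hochberg adjustment over 11075 genes. The slope gave each concentration equal weight and vehicle none, with the spread estimated over all 8 groups. The calculations were tested on simulated data. Figures used Python 3.11.15, pandas 2.3.3 and matplotlib 3.10.9.

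The members and lists were chosen with earlier results of these data known. Every member was to be named, those called with full values, and the lists by counts with called genes named. A midpoint concentration was planned for members called both by the F test and at 1000 pM, and there were none. Alternatives changed the filter, variance prior, normalization, array weights, probe sets, arrays and replicate block. Leaving out single arrays was added after seeing the data. Replicate numbers did not pair arrays in any comparison with vehicle: 3 to 4 of 6 pairs per comparison had deviations correlated over 0.1. All 6 did between 1 and 3 pM, 3 and 10 pM, and 10 and 100 pM (lowest 0.206, 0.220 and 0.271), a pairing seen in the values and not given in the labels.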

Additional observations from a re-analysis of the deposited data

Results flagged for a closer look

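The value of 1 array stood apart from the rest of its group, by the gap to its nearest neighbour against the group's range (Dixon's test), in 10 of 104 groups, where chance gives about 5%. Of these, 6 were in the 4 arrays of high beta-actin difference. HOXB7 was at 7.06 in 3 pM replicate 6, with the other arrays of the group at 6.43 to 6.65. HOXB9 was at 4.93 in the same array (others 4.30 to 4.52) and at 4.69 in 1000 pM replicate 6 (others 4.30 to 4.38). HOXB13 was at 4.72 in vehicle replicate 5 (others 3.90 to 4.15). In 0.3 pM replicate 2, HOXD9 was at 6.41 (others 5.10 to 5.32) and HOXD4 was lowest at 3.83 (others 4.34 to 4.56).

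The other 4 were in arrays with an ordinary beta-actin difference. HOXD1 was lowest at 4.08 in 0.1 pM replicate 4 (others 4.31 to 4.44). HOXD8 was highest at 5.58 in 1 pM replicate 5 (others 5.21 to 5.28). HOXD9 was lowest at 4.70 in 100 pM replicate 3 (others 5.07 to 5.22). HOXD13 was highest at 5.81 in 3 pM replicate 4 (others 5.40 to 5.51).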

How the results depend on the processing

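The slope of HOXB3 was called under all 12 other settings of the processing and in all 6 fits without a replicate number. The calls of HOXD1 did not hold as widely. The count of HOX genes called at 100 pM went from 1 to 0 with a filter at log2 above 5, with no filter, with every entering probe set tested, without the 2 arrays over 5 median absolute deviations, and with only the groups compared. At 1000 pM it went from 1 to 0 under the same 5 and also without the 4 arrays, and with array weights the 1 gene called there was HOXB3 in place of HOXD1. The filter at log2 above 5 leaves HOXD1 out. Using no filter tests more genes, but so does a filter at log2 above 3, with which both calls held. Why the calls were lost under the settings other than the filter at log2 above 5 was not tested. The F test, with 0, called 2 with array weights (HOXB3 and HOXD4) and 1 without the 4 arrays (HOXD4). The slope, with 2, called 1 with the filter at log2 above 5 and 3 with a filter at log2 above 3 or none, which let in HOXD3. It called 3, with HOXD4 added, with no intensity trend, without the 2 arrays and with only the groups compared, and with array weights it called HOXB3 and HOXD4. Without each replicate number in turn the counts were 0 to 1 at 100 pM, at 1000 pM and by F, and 2 by slope. In these 6 fits HOXD1 was called in 3 at 100 pM, 1 at 1000 pM and 4 by slope. HOXB3 was called by slope in all 6. The counts at the lower concentrations were 0 under every alternative. The HOXD1 differences at 100 and 1000 pM kept their direction in every fit that tested them, as did the slopes of HOXD1, HOXB3 and HOXD4. Some small estimates that were not called changed sign without the 4 arrays. At 1000 pM HOXD9 went from −0.08 to 0.01 and HOXB4 from 0.02 to −0.02. The HOXD13 slope went from −0.01 to 0.02.

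With the replicate block the counts of HOX genes were 1 at 100 pM, 1 at 1000 pM, 0 by F and 3 by slope (HOXD4 added, slope −0.08), and no other call changed. Over all genes the calls ranged from 0 to 20 at 3 pM (17 as reported), 33 to 160 at 10 pM (95), 290 to 1792 at 100 pM (1120), 308 to 1157 at 1000 pM (799), 519 to 1516 by F (774) and 1010 to 2785 by slope (1384).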
